A study of Mus musculus with 144 samples.

Results

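The comparison was of TCDD with vehicle in mouse primary hepatocytes labelled with the genotype DRE-null and harvested at 96 h. It used 8 RNA-Seq libraries, which are 2 of the 36 groups of 4 in the series and were chosen by their labels of genotype, treatment and time. TCDD libraries 1 to 4 (titled P172_137 to P172_140) came from cultures given 10 nM of the dioxin TCDD, and vehicle libraries 1 to 4 (titled P172_101 to P172_104) from cultures given dimethyl sulfoxide (DMSO), with numbers that follow title order and pair nothing. The labels give the strain Pkm-delta-DRE, male sex and an age of 28 days for both groups. Both are labelled with the same deletion, a germline deletion made by CRISPR-Cas9 of the dioxin response element (DRE) in an intron of *Pkm*, the gene of pyruvate kinase M. Hepatocytes were isolated by collagenase perfusion and plated on collagen. The protocol and the entry for the culture vessel differ in plate format and seeding density. The labels name no animal, isolation or culture for a library and give no replicate number, so p-values measure only the spread between these libraries, which may be technical. In a bulk library, fewer cells of a type and less RNA per cell cannot be told apart.

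TCDD is a persistent ligand of the aryl hydrocarbon receptor (AHR), a transcription factor held in the cytosol by chaperones. After ligand binding the receptor enters the nucleus, pairs with ARNT and binds DREs, whose core is GCGTG. The best known target is *Cyp1a1*, and the AHR battery also includes other cytochrome P450s, conjugating enzymes, and the repressors AHRR and TIPARP, which limit the receptor's activity. In the liver, sustained activation of the receptor is known for lowered metabolic gene expression and for effects on hepatocyte proliferation. Hepatocytes in culture lose much of their liver-specific expression over days, which bears on the vehicle libraries described next.

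Vehicle library 4, labelled as a 96 h vehicle library, did not resemble the other 7. Spearman's rho across 13866 genes between each library and the mean of the vehicle libraries at each time of the same label was taken as a description of likeness (the library itself was left out of the mean, and vehicle library 4 out of every 96 h mean). For vehicle library 4 it was 0.957 at 2 h, 0.969 at 4 h and 0.954 at 8 h, then 0.852 at 48 h, 0.833 at 96 h and 0.807 at 120 h. The other 7 libraries had a rho of 0.969 to 0.985 with the mean of vehicle libraries 1 to 3 at 96 h, or of the other 2 of these for a vehicle library. Their rho at 4 h, 0.877 to 0.907, was also above that at 2 h and at 8 h in each library. A higher rho at 4 h than at 2 h or 8 h was thus not particular to vehicle library 4. Vehicle library 1 had its highest rho at 72 h (0.985), with 0.972 at 48 h and 0.970 at 96 h. TCDD library 1 was also highest at 72 h (0.974 against 0.971 at 96 h). Vehicle library 3 was highest at 120 h (0.987) and the remaining libraries at 96 h. Read pairs that did not map made up 11.1% of vehicle library 4, against 4.30% to 5.27% in vehicle libraries 1 to 3 and 1.96% to 2.90% in the TCDD libraries. Albumin (*Alb*, the main plasma protein made by hepatocytes) was at 9952, 13379 and 12855 CPM (read pairs on a gene scaled to TMM-adjusted library size) in vehicle libraries 1 to 3, at 92746 in vehicle library 4, and at 18391, 26273, 25527 and 10941 in the TCDD libraries. Vehicle library 4 thus stood several times above every other library, and the remaining vehicle and TCDD libraries overlapped. The library whose counts were nearest to it, by a chi-square per degree of freedom of 12.2, was labelled DRE-null, TCDD, 4 h, and that library's difference from vehicle library 4 was still far above sampling noise. The total numbers of calls and many single genes are therefore given with all 8 libraries and without vehicle library 4. A value given for a single fit is that without vehicle library 4 unless stated.

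**Figure D1:**
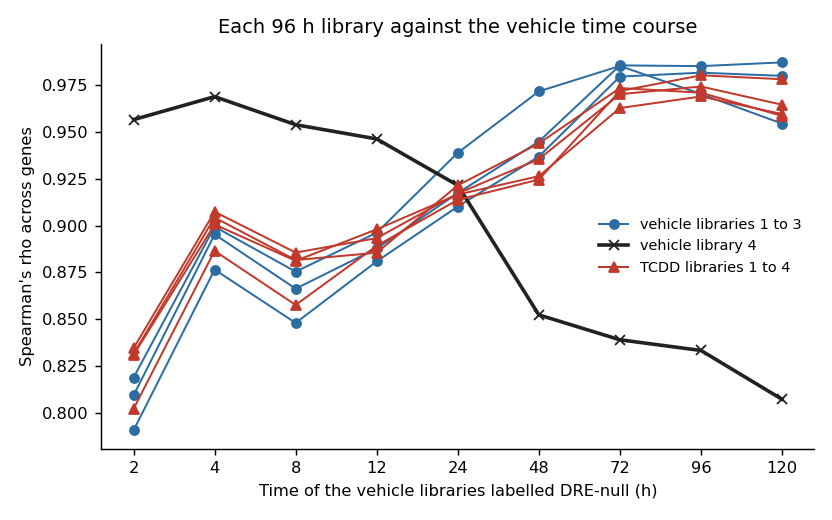
Spearman's rho across genes (vertical axis) between each 96 h library labelled DRE-null and the mean of the vehicle libraries of that label at each time (horizontal axis, hours), with vehicle library 4 left out of the 96 h mean. Vehicle library 4 (black crosses) was highest at 4 h, at 0.969, and fell to 0.833 at 96 h, whereas vehicle libraries 1 to 3 (blue) and TCDD libraries 1 to 4 (red) lay at 0.969 to 0.985 at 96 h.

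The authors deposited the number of uniquely mapped read pairs per gene, and 17740379 to 30008281 pairs were counted on genes in these libraries. Hepatocyte markers summed to 29750 to 33530 CPM in vehicle libraries 1 to 3, to 193300 in vehicle library 4 and to 39290 to 61280 in the TCDD libraries. Markers of other cells were present at lower sums, and 6 of 9 lymphocyte markers had no count in any of the 8 libraries (among them *Cd3d*, *Cd3e*, *Cd3g*, *Ms4a1* and *Gzma*). The unmapped share separated the treatments (exact permutation test, two-sided, p = 0.0286 for 4 against 4, the smallest that design allows). The TCDD libraries also carry higher library numbers, so within these 8 libraries number order and treatment cannot be told apart. Elsewhere in the series the unmapped share changed within a treatment group. With TCDD at 24 h under the DRE-null label, the lower-numbered libraries had 7.586% and 7.345%. The higher-numbered ones had 2.768% and 3.812%. With TCDD at 96 h under the wild-type label the share was 3.909% to 11.38%. The part of the unmapped share in the results was not tested.

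*Pkm*, the gene named in the label, was reported first as a check of the labels. Its level was 894, 381 and 383 CPM in vehicle libraries 1 to 3, 114.9 in vehicle library 4, and 702, 473, 516 and 555 in the TCDD libraries. The TCDD libraries lay within the range of vehicle libraries 1 to 3. The log2 fold change was 0.34 ± 0.51 (SE) with 8 libraries and -0.02 ± 0.28 without vehicle library 4, and neither passed the quasi-likelihood test of edgeR after adjustment by Benjamini and Hochberg (adjusted p = 0.851 and 0.994). Deletion of a short intronic motif leaves no trace in gene counts, so the genotype itself could not be checked in this way. Across the series, *Pkm* was higher in every TCDD library than in every vehicle library under the DRE-null label at 8, 12, 24 and 48 h, with log2 ratios of the means of 1.00 to 1.41, and at no time under the wild-type label. The DRE was removed as a candidate site of AHR action on *Pkm*, so this pattern runs opposite to the labels, in counts that do not separate the isoforms PKM1 and PKM2. Whether samples or labels were exchanged was not tested, and other assays of these cultures were not analysed here. Groups are therefore named by their labels, and a direction holds for the label only. *Pklr*, the pyruvate kinase of mature liver, had a log2 fold change of 0.58 ± 0.15 without vehicle library 4 and was not called (edgeR adjusted p = 0.0792).

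With all 8 libraries, 11 of 13866 genes tested (0.0793%) were called, which here means that the edgeR adjusted p was below 0.05 and that the level differed 1.5-fold or more. All 11 were higher with TCDD, among them *Cyp1b1*, *Entpd2*, *Lrp4*, *Dclk3*, *Ahrr*, *Il1r1*, *Tuba8*, *Selenbp1*, *Nqo1* and the pseudogene *H2-T-ps*, the last named after its values were seen. None was lower by edgeR. At an unadjusted p under 0.05 there were 998 genes, and DESeq2 called 147, of which 53 were lower. Without vehicle library 4, 321 of 14286 genes (2.25%) were called, 158 higher (1.11%) and 163 lower (1.14%), and all 11 were among them. Vehicle library 4 alone set this difference in number, since leaving out any other single library from the 8 gave 4 to 6 calls. The common dispersion, the fitted spread between libraries of a group, was 0.219 with vehicle library 4 and 0.0760 without it. From the 7 libraries, leaving out TCDD library 1 as well lowered the share called from 2.25% to 0.815% of the genes tested, and leaving out TCDD library 3 to 1.45%. The median log2 fold change over all genes was -0.00 with 8 libraries and -0.02 with 7.

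Complete separation of the groups was more frequent than a call. Every TCDD library lay above every vehicle library for 4.08% of the genes tested and below for 1.74% with 8 libraries, and the shares were 6.95% (993 genes) and 5.11% (730 genes) without vehicle library 4. Of the 158 genes called higher with 7 libraries, vehicle library 4 lay above the other vehicle libraries in 82 and above every TCDD library in 43. Of the 163 called lower, it lay below the other vehicle libraries in 79.1% and below every TCDD library in 64.4%. Of the 316 called genes that were tested in both fits, 294 had the same direction with 8 libraries.

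**Figure D2:**
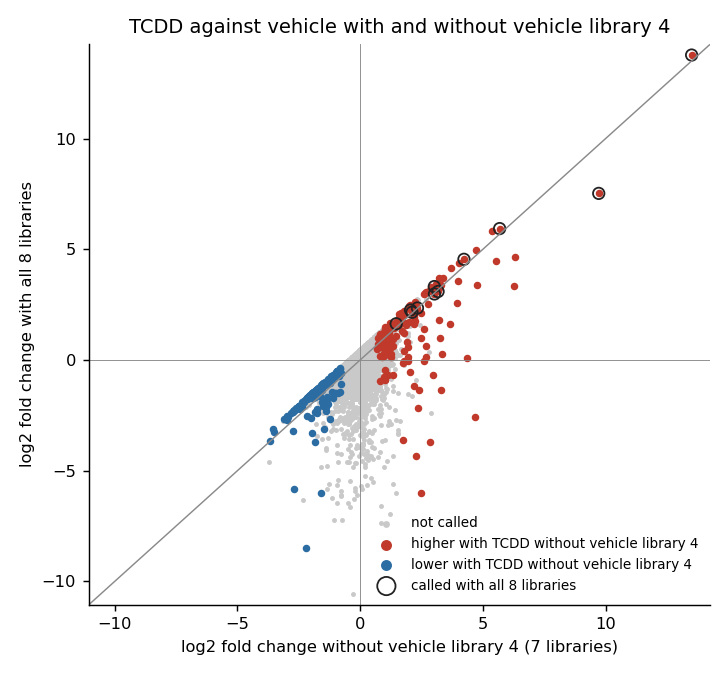
Log2 fold change of TCDD against vehicle for each gene tested in both fits, without vehicle library 4 (horizontal axis) and with all 8 libraries (vertical axis). Red and blue points are genes called higher and lower without vehicle library 4, circles mark the 11 genes called with all 8, and the diagonal marks equal values. The circled genes lie near the diagonal except *Ahrr*, at 9.72 without and 7.53 with vehicle library 4, whereas many red points drop far below it.

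Most AHR battery genes rose. Without vehicle library 4, 15 of its 20 tested genes were called, all higher, and 16 of 20 had no overlap between the groups. Over all genes tested, 1.11% were called higher and 6.95% lay higher in every TCDD library. The median log2 fold change of the battery was 2.19 against -0.02 over all genes tested. With 8 libraries, 6 were called and the median was 2.08. Both numbers of calls include *Cyp1b1* and *Ahrr*, which passed the filter on low counts only through the TCDD libraries. These genes were tested only because they were counted there, so their calls carry no independent weight. Over the alternatives to the fit of 7 libraries, 11 to 16 battery genes were called. *Aldh3a1* and *Inmt* had counts in too few libraries to be tested, although *Inmt* was at 503 CPM in vehicle library 4.

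The cytochrome P450 genes of the battery came first. *Cyp1b1*, a P450 that metabolizes estrogens and polycyclic hydrocarbons, was at 0, 0.0482, 0.118 and 0 CPM in the vehicle libraries, which is 4 read pairs in all, and at 719.8, 851, 779.8 and 805 CPM in the TCDD libraries. The groups did not overlap, and the gene went from almost no pairs to a high count in each TCDD library. Its log2 fold change was 13.78 ± 0.65 with 8 libraries (edgeR adjusted p = 5.58e-05) and 13.51 ± 0.39 with 7 (adjusted p = 7.97e-09), values that depend on the prior count because the vehicle level rests on so few pairs.

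*Cyp1a1*, the P450 by which AHR activation is usually recognized, was at 5.63, 269 and 213 CPM in vehicle libraries 1 to 3, 2.95 in vehicle library 4, and 7298, 6761, 7321 and 6499 in the TCDD libraries. Every TCDD library was far above every vehicle library, and the TCDD libraries differed little among themselves. The vehicle libraries were split, with vehicle libraries 2 and 3 far above 1 and 4. The gene missed the test with 8 libraries (log2 fold change 5.83 ± 1.42, edgeR adjusted p = 0.375) and passed it with 7 (5.36 ± 0.95, adjusted p = 0.0158). Leaving out any 1 of the 7 except vehicle library 1 ended the call again, with an adjusted p of up to 0.290.

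*Cyp1a2*, a hepatocyte P450 that oxidizes aromatic amines and binds TCDD, was at 10.1, 122.4 and 221 CPM in vehicle libraries 1 to 3 and 654 in vehicle library 4. In the TCDD libraries it was at 6734, 5747, 6519.5 and 3651 CPM. The groups did not overlap, although vehicle library 4 was the highest of the vehicle libraries. Without vehicle library 4 the log2 fold change was 5.53 ± 0.83 (edgeR adjusted p = 0.00643), and with 8 libraries 4.49 ± 1.03 (adjusted p = 0.321). The call was lost when vehicle library 2 or TCDD library 2 was also left out, with an adjusted p of up to 0.175.

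The feedback genes of the receptor followed. *Ahrr*, the AHR repressor, was at 0.0507, 0 and 0 CPM in vehicle libraries 1 to 3, at 0.492 in vehicle library 4, and at 17.9, 14.3, 22.2 and 16.4 in the TCDD libraries. It was nearly uncounted under vehicle, with 1 pair in vehicle libraries 1 to 3 together and 5 in vehicle library 4. The fitted log2 fold change was 9.72 ± 0.54 without vehicle library 4 (edgeR adjusted p = 6.41e-06) and 7.53 ± 0.93 with it (adjusted p = 0.0330).

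*Tiparp*, an ADP-ribosyltransferase that modifies AHR and lowers its activity, was among the genes in which vehicle library 4 departed from its group. Its level was 4.41, 5.88 and 6.27 CPM in vehicle libraries 1 to 3, 78.1 in vehicle library 4, and 65.1, 70.8, 57.3 and 94.5 in the TCDD libraries. Vehicle library 4 thus lay among the TCDD libraries, and the other vehicle libraries lay far below. The log2 fold change was 3.65 ± 0.25 without vehicle library 4 (edgeR adjusted p = 2.64e-05) and 1.62 ± 0.91 with it (adjusted p = 0.699). The 10 genes of the receptor complex itself, which include the receptor, ARNT and chaperones, held no call in either fit, with a median log2 fold change of 0.01 without vehicle library 4. Of these 10 genes, 1 had every TCDD library above and 1 every TCDD library below vehicle libraries 1 to 3. Over all genes tested, 6.95% and 5.11% separated in these directions.

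DNA upstream of 5 called battery genes and of *Entpd2*, which lies outside the battery, is shown because these windows hold the DRE core, to which the receptor binds. The 250 bases before the RefSeq start of a transcript are given 5′ to 3′ on the gene's strand from build GRCm38.p6, with the core in capitals as GCGTG, or as CACGC where it lies on the other strand. Overlapping matches were counted separately. The entries are *Cyp1a1* (chr9:57697363-57697612, + strand), *Cyp1b1* (chr17:79715062-79715311, - strand), *Ahrr* (chr13:74292332-74292581, - strand), *Tiparp* (chr3:65528197-65528446, + strand), *Selenbp1* (chr3:94932833-94933082, + strand) and *Entpd2* (chr2:25395624-25395873, + strand).
Cyp1a1: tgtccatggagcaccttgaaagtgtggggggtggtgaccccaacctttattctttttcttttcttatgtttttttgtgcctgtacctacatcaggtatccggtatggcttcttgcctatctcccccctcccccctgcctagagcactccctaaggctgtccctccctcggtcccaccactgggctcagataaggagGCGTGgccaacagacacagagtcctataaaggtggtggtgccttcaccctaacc
Cyp1b1: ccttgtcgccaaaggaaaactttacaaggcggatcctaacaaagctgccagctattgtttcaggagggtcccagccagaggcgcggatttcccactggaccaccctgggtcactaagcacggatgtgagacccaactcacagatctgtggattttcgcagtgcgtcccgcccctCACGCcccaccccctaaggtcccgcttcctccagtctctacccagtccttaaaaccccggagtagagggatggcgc
Ahrr: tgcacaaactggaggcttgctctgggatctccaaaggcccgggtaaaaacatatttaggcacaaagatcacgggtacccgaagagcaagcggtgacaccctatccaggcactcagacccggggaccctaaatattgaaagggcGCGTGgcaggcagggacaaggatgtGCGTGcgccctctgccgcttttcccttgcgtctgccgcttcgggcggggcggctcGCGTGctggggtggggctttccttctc
Tiparp: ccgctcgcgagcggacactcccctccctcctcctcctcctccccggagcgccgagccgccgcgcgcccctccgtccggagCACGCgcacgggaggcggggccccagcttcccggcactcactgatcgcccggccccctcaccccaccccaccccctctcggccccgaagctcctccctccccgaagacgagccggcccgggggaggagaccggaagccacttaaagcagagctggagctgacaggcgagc
Selenbp1: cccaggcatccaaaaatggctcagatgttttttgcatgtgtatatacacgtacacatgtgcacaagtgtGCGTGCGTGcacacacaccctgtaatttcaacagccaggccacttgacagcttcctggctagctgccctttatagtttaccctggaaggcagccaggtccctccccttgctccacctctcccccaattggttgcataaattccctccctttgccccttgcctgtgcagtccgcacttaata
Entpd2: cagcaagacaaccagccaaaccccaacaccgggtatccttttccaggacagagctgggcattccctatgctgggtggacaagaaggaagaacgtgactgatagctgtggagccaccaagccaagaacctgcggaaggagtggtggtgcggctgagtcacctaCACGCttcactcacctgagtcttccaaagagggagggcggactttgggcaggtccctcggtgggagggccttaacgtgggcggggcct
The first base of the core stood 54 bases upstream of the start in *Cyp1a1*, 76 in *Cyp1b1*, 170 in *Tiparp* and 88 in *Entpd2*. *Ahrr* had 3 matches, the nearest at 27 bases, and *Selenbp1* had 2 that overlap, at 181 and 177 bases. Of the 11 genes called with 8 libraries, 8 had a RefSeq promoter entry and 5 of these (62.5%) held the core on either strand, namely *Ahrr*, *Cyp1b1*, *Entpd2*, *Il1r1* and *Selenbp1*. Called battery genes without a match in this window were *Cyp1a2*, *Nqo1*, *Fmo2*, *Slc46a3*, *Cd36* and *Ugt1a6a*, and over the 17 battery genes with an entry the share was 41.2% (7 genes). The core is short and common: it was in 28.2% of 32851 promoters and in the window of 48.9% of the 10583 tested genes with an entry. Among genes called without vehicle library 4 it was in 32.8% of the rises with an entry and 49.6% of the falls, so its share was lower among the rises than among all genes tested. The longer form TNGCGTG was in 4.10% of promoters. Neither of the 2 *Pkm* promoters held the core in this window. A match describes letters in the sequence and is not evidence of binding, and farther DREs were outside the window.

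Battery genes of oxidation and conjugation rose less steeply. *Nqo1*, a quinone reductase shared by AHR and NRF2, was at 41.8, 32.1, 29.5 and 23.2 CPM in the vehicle libraries and at 111.5, 93.4, 103.3 and 85.6 in the TCDD libraries. The groups did not overlap and vehicle library 4 was the lowest of all. The log2 fold change was 1.64 ± 0.22 with 8 libraries (edgeR adjusted p = 0.0442) and 1.47 ± 0.18 with 7 (adjusted p = 0.00169). *Xdh*, xanthine dehydrogenase of purine breakdown, was at 159, 130.5 and 156 CPM in vehicle libraries 1 to 3, 293 in vehicle library 4, and 709.6, 705, 747 and 635 in the TCDD libraries. It was higher in every TCDD library, with a log2 fold change of 2.19 ± 0.16 without vehicle library 4 (edgeR adjusted p = 3.18e-05) and 1.92 ± 0.29 with it (adjusted p = 0.0811).

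*Selenbp1*, a selenium-binding protein that oxidizes methanethiol, was at 764, 586, 793 and 723 CPM in the vehicle libraries and at 4235, 3027, 3131 and 2366 in the TCDD libraries. Vehicle library 4 did not differ from the other vehicle libraries here, and the groups lay apart. Fitted as log2, the fold change was 2.15 ± 0.29 with 8 libraries and 2.11 ± 0.23 with 7 (edgeR adjusted p = 0.0426 and 0.000704).

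*Dclk3*, a kinase of the doublecortin-like family, was at 1.93, 2.31, 2.72 and 0.590 CPM under vehicle and at 50.9, 38.9, 56.1 and 35.4 with TCDD. The groups were well separated and vehicle library 4 was the lowest, giving a log2 fold change of 4.55 ± 0.43 with 8 libraries and 4.23 ± 0.26 with 7 (edgeR adjusted p = 0.00495 and 1.31e-05). The other battery genes called without vehicle library 4 were *Slc46a3*, a lysosomal transporter (log2 fold change 2.48 ± 0.26, edgeR adjusted p = 0.000686), *Ugt1a6b* (2.19 ± 0.26, 0.00130), *Ugt1a6a* (1.78 ± 0.31, 0.0140), *Fmo2* (1.70 ± 0.39, 0.0465) and *Cd36*, a fatty acid transporter (1.03 ± 0.21, 0.0307). None of these 5 was called with 8 libraries. The calls of *Fmo2* and *Cd36* were lost on leaving out 5 and 3 of the 7 libraries in turn, with an adjusted p of up to 0.131 and 0.0881.

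The 5 tested battery genes that were not called were the glutathione S-transferases *Gsta1* (log2 fold change -0.13 ± 0.17 without vehicle library 4) and *Gsta2* (0.71 ± 0.18), *Ugdh*, which makes UDP-glucuronic acid (0.19 ± 0.25), *Ecel1* (2.61 ± 1.07) and *Lekr1* (0.25 ± 0.44). *Gsta2* was nonetheless higher in every TCDD library than in every vehicle library, at 164 to 205 CPM against 62.3 to 134.4. *Gsta1* was at 220.2 to 259 CPM with TCDD and 199 to 317 in vehicle libraries 1 to 3, so the groups overlapped. *Gsta1* and *Gsta2* are close copies, and pairs that fit both were not counted by the authors' aligner, so the split between them is uncertain.

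**Figure D3:**
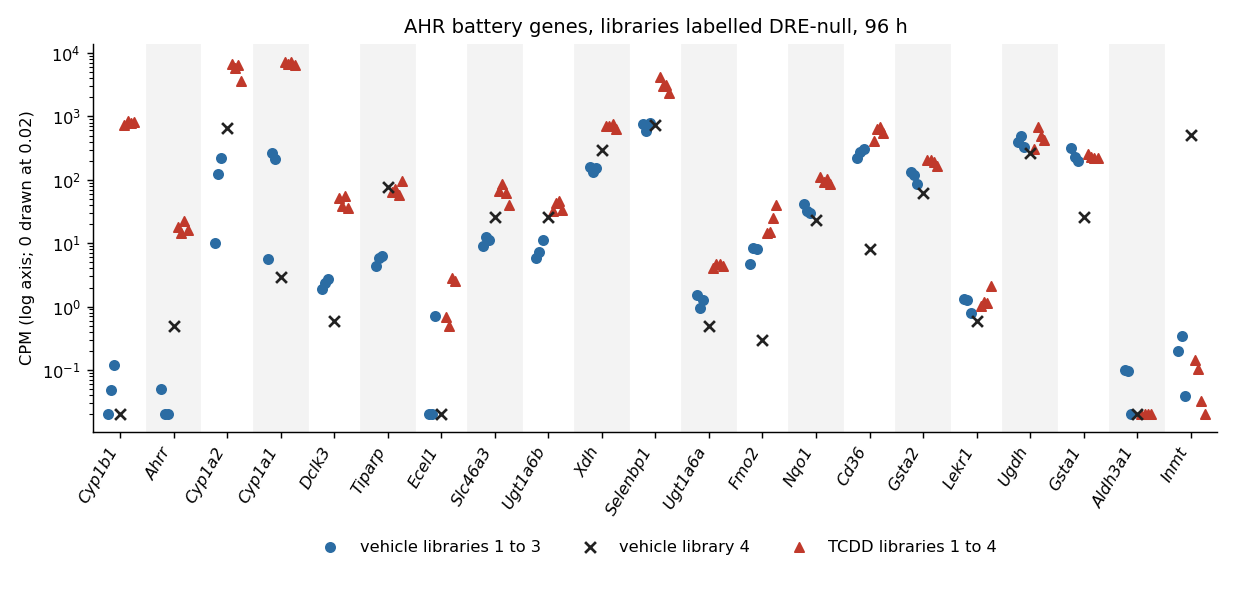
CPM (log axis, 0 drawn at 0.02) of 21 AHR battery genes in each library, ordered by log2 fold change without vehicle library 4. Red triangles are TCDD libraries 1 to 4, blue circles vehicle libraries 1 to 3 and crosses vehicle library 4. *Cyp1b1* rises from at most 0.118 CPM to at least 719.8, whereas the cross of *Tiparp*, at 78.1, sits among the TCDD libraries.

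Some genes called with all 8 libraries lay outside the battery. *Entpd2*, an ectonucleotidase that removes phosphate from extracellular ATP, was at 5.88, 7.14, 5.17 and 7.77 CPM under vehicle and at 54.6, 48.0, 52.7 and 49.2 with TCDD. The groups lay far apart with little spread, and vehicle library 4 was no exception. On the log2 scale the change was 2.98 ± 0.20 with 8 libraries (edgeR adjusted p = 0.000716) and 3.03 ± 0.20 with 7 (adjusted p = 2.20e-05). *Lrp4*, a receptor of the LDL receptor family that takes part in Wnt and agrin signalling, was at 7.75, 8.73, 12.1 and 13.3 CPM under vehicle and at 80.2, 104.4, 93.3 and 79.5 with TCDD. Vehicle library 4 was only slightly above the others, with a log2 fold change of 3.09 ± 0.24 with 8 libraries and 3.18 ± 0.22 with 7 (edgeR adjusted p = 0.00166 and 2.64e-05).

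*Entpd2* and *Lrp4* kept their calls under each alternative to the fit of 8 libraries. *Il1r1*, the receptor of interleukin-1, was at 37.9, 72.997, 56.04 and 33.4 CPM under vehicle and at 207, 287, 224 and 240.0 with TCDD. No vehicle library reached the lowest TCDD library. In edgeR the log2 fold change was 2.26 ± 0.28 with 8 libraries and 2.05 ± 0.24 with 7 (edgeR adjusted p = 0.0330 and 0.00117). *Tuba8*, an alpha-tubulin, was at 3.35, 1.54, 2.92 and 0.786 CPM under vehicle and at 22.5, 20.7, 24.01 and 19.98 with TCDD. The TCDD libraries were close to each other, with a log2 fold change of 3.32 ± 0.42 with 8 libraries and 3.02 ± 0.28 with 7 (edgeR adjusted p = 0.0330 and 0.000247). Among 14 alternatives to the fit of 8 libraries, *Il1r1* lost its call under 7 (edgeR adjusted p up to 0.186) and *Tuba8* under 8 (up to 0.330). *H2-T-ps*, a histocompatibility pseudogene whose pairs may come from related genes, went from 2.56 to 3.19 CPM to 14.5 to 15.8 CPM (log2 fold change 2.35 ± 0.22, edgeR adjusted p = 0.00495 with 8 libraries).

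Conjugating enzymes of the UDP-glucuronosyltransferase and sulfotransferase families held 5 rises and no fall among 19 tested genes without vehicle library 4, with a median log2 fold change of 0.51. For this list and those below, 1.11% of all genes tested were called higher and 1.14% lower in the same fit. All 5 rises belonged to the Ugt1a locus, whose genes share their last exons. Pairs in shared exons are ambiguous and were not counted, so the values rest on the first exons and the split is uncertain. *Ugt1a9* was at 0.760, 2.56 and 0.749 CPM in vehicle libraries 1 to 3, 39.4 in vehicle library 4, and 73.9, 119.8, 137.8 and 95.1 in the TCDD libraries. Vehicle library 4 stood between the groups, closer to TCDD than to the other vehicle libraries. Fitted as log2, the fold change was 6.25 ± 0.47 without vehicle library 4 (edgeR adjusted p = 3.36e-05) and 3.32 ± 1.23 with it (adjusted p = 0.647). *Ugt1a7c* rose by 3.23 ± 0.40 on the log2 scale without vehicle library 4 (edgeR adjusted p = 0.00174) and *Ugt1a5* by 2.47 ± 0.28 (adjusted p = 0.00111). *Sult2a1*, a steroid sulfotransferase outside the list, had 0, 1 and 1 pairs in vehicle libraries 1 to 3 and 18 to 40 in the TCDD libraries (fitted log2 fold change 4.73 ± 0.78, edgeR adjusted p = 0.0111).

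*Fmo5*, an oxidizing enzyme outside the battery, was at 126.3, 134.4 and 150.2 CPM in vehicle libraries 1 to 3, 324 in vehicle library 4 and 337 to 591 in the TCDD libraries. Its log2 fold change was 1.69 ± 0.20 without vehicle library 4 (edgeR adjusted p = 0.00129). Without vehicle library 4, 4 of 32 tested CYP2, CYP3 and CYP4 enzymes rose and 1 fell (median 0.30). With 8 libraries none of 31 tested was called (median -1.69). The rises were *Cyp2a5*, a coumarin hydroxylase (1.64 ± 0.34, adjusted p = 0.0301), *Cyp2a12* (1.80 ± 0.25, 0.00453), *Cyp2b10*, the usual target of the receptor CAR (1.25 ± 0.28, 0.0453), and *Cyp2f2* (1.76 ± 0.37, 0.0309), by edgeR on 7 libraries. *Cyp3a11*, the main CYP3A enzyme of mouse liver, fell by 2.23 ± 0.51 on the log2 scale (edgeR adjusted p = 0.0490), from 4.46, 1.98 and 2.01 CPM to 0.244 to 1.12. Vehicle library 4 had 892 CPM of *Cyp3a11* and 3197 of *Cyp2f2*, against 9.55 to 30.7 of *Cyp2f2* in the other vehicle libraries, so with it the log2 fold change of *Cyp2f2* was -3.62. Of these 5 calls only that of *Cyp2a12* held when each of the 7 libraries was left out in turn, and those of the other genes reached an adjusted p of 0.106 to 0.182. Cyp2a genes are close copies and their split is uncertain.

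Alcohol and retinoid metabolism held 4 rises and no fall among 22 tested genes, with a median of 0.16. *Adh1*, the class I alcohol dehydrogenase that also oxidizes retinol, was at 145.4, 144.6 and 106.5 CPM in vehicle libraries 1 to 3, 2206 in vehicle library 4, and 1643, 1371, 1262 and 925 in the TCDD libraries. Vehicle library 4 was above every TCDD library, and the other vehicle libraries were far below them. On the log2 scale the change was 3.25 ± 0.24 without vehicle library 4 (edgeR adjusted p = 3.18e-05) and 1.00 ± 0.96 with it (adjusted p = 0.782). *Adh7*, a retinol dehydrogenase of class IV, rose by 4.78 ± 0.48 on the log2 scale (edgeR adjusted p = 0.000442), *Aldh8a1* by 1.97 ± 0.40 (0.0297) and *Rdh10* by 1.35 ± 0.24 (0.0160). The call of *Aldh8a1* was lost on leaving out 4 of the 7 libraries in turn.

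Carboxylesterases of the Ces1 cluster were also placed apart in vehicle library 4. *Ces1f* was at 0.912, 0.675 and 1.18 CPM in vehicle libraries 1 to 3, 597 in vehicle library 4, and 29.5, 25.5, 29.98 and 15.3 in the TCDD libraries. The TCDD libraries were above the 3 other vehicle libraries and far below vehicle library 4. The log2 fold change therefore was 4.70 ± 0.33 without vehicle library 4 (edgeR adjusted p = 2.93e-05) and -2.58 ± 1.91 with it (adjusted p = 0.743), so the sign turned on 1 library. *Ces1b* rose by 4.36 ± 0.42 without vehicle library 4 (edgeR adjusted p = 0.000360) and had 107.8 CPM in vehicle library 4 against 0.907 to 2.18 in vehicle libraries 1 to 3. The Ces1 genes are near copies of each other and their split is uncertain.

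Fatty acid oxidation genes held 4 rises and no fall among 31 tested genes, with a median of 0.28. *Acaa1b*, a peroxisomal thiolase, was at 20.98, 20.5 and 21.5 CPM in vehicle libraries 1 to 3, 1132 in vehicle library 4, and 153.4, 119.4, 116.2 and 72.2 in the TCDD libraries. The TCDD libraries all exceeded vehicle libraries 1 to 3, and none reached vehicle library 4. In edgeR the log2 fold change was 2.41 ± 0.24 without vehicle library 4 (edgeR adjusted p = 0.000391) and -1.37 ± 1.29 with it (adjusted p = 0.779). *Acot1*, an acyl-CoA thioesterase of the cytosol, was at 45.01, 46.9, 83.4 and 20.2 CPM under vehicle and at 223, 176, 236 and 187 with TCDD. Here vehicle library 4 was the lowest, and the groups did not overlap. *Acot1* rose by 1.77 ± 0.24 without vehicle library 4 (edgeR adjusted p = 0.00325), and *Fabp1*, the liver fatty acid binding protein, by 2.47 ± 0.46 (adjusted p = 0.0176). *Fabp1* was at 0.912 to 1.03 CPM in vehicle libraries 1 to 3, 2.11 to 8.07 in the TCDD libraries and 1430.1 in vehicle library 4, and its call was lost on leaving out 2 of the 7 libraries in turn.

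In carbohydrate metabolism, few genes passed the test. *Hk2*, the hexokinase of muscle and tumours, fell from 30.4, 34.04 and 19.2 CPM to 8.29 to 13.7 (log2 fold change -1.37 ± 0.25, edgeR adjusted p = 0.0176) and was at 0.983 in vehicle library 4. *Fbp1*, which makes fructose 6-phosphate in gluconeogenesis, rose by 2.34 ± 0.38 (edgeR adjusted p = 0.0109) and was the single call among 10 gluconeogenesis genes. The calls of *Hk2* and *Fbp1* were lost without TCDD library 1, at an adjusted p of 0.0691 and 0.0578. None of 10 pentose phosphate, 24 TCA cycle, 24 cholesterol synthesis or 22 lipogenesis genes tested was called, with medians of -0.01, -0.03, -0.28 and 0.05. Of 20 serine and one-carbon genes, 5 lay lower and 1 higher in every TCDD library than in vehicle libraries 1 to 3. Over all genes tested, 5.11% and 6.95% separated in these directions. The 1 gene called was *Shmt1* (log2 fold change -0.92 ± 0.19, edgeR adjusted p = 0.0283), which lost the call on leaving out 5 of the 7 libraries in turn.

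Amino acid genes gave single calls. *Arg1*, the arginase of the urea cycle, was at 55.8, 39.8 and 42.8 CPM in vehicle libraries 1 to 3, 1054 in vehicle library 4, and 233, 286, 399 and 236 in the TCDD libraries. It was higher in every TCDD library than in vehicle libraries 1 to 3, and vehicle library 4 was higher still. Fitted as log2, the fold change was 2.60 ± 0.23 without vehicle library 4 (edgeR adjusted p = 0.000206) and -0.05 ± 1.04 with it (adjusted p = 0.992). It was the 1 call among 12 tested urea cycle and ammonia genes. *Tdo2*, which starts tryptophan breakdown, rose by 1.75 ± 0.40 (edgeR adjusted p = 0.0465), and *Nnmt*, which methylates nicotinamide, fell by 1.41 ± 0.26 on the log2 scale (adjusted p = 0.0177), the 2 calls among 14 genes of tryptophan and NAD. *Tdo2* lost its call on leaving out 6 of the 7 libraries in turn, with an adjusted p of up to 0.211, and *Nnmt* without vehicle library 1 (0.0532).

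Without vehicle library 4, secreted plasma proteins held 2 rises and 1 fall among 40 tested genes (median 0.09), against no call with 8 libraries (median -1.88). The fall was *Igf1*, insulin-like growth factor 1 of the growth hormone axis. It was at 35.5, 49.95 and 41.998 CPM in vehicle libraries 1 to 3, 509.5 in vehicle library 4, and 10.4, 11.8, 11.3 and 14.9 in the TCDD libraries. Every TCDD library was below every vehicle library. On the log2 scale the change was -1.86 ± 0.21 without vehicle library 4 (edgeR adjusted p = 0.000883) and -3.72 ± 0.93 with it (adjusted p = 0.408). *Apoh* rose by 1.00 ± 0.21 (edgeR adjusted p = 0.0344) and the coagulation factor *F12* by 0.80 ± 0.18 (0.0470), and both calls were lost on leaving out 4 and 6 of the 7 libraries in turn. *Trf*, transferrin, was higher in every TCDD library than in vehicle libraries 1 to 3, at 22524 to 35650.0 CPM against 9402 to 16684, and was not called (log2 fold change 1.04 ± 0.26, edgeR adjusted p = 0.0708). *Alb* overlapped between the groups (log2 fold change 0.70 ± 0.29, edgeR adjusted p = 0.359).

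Cell cycle genes were the group that fell. Without vehicle library 4, 13 of 22 tested genes were called, all lower with TCDD, the median log2 fold change was -1.65 and 18 of 22 lay lower in every TCDD library than in vehicle libraries 1 to 3, where 1.14% of all genes were called lower and 5.11% separated in this direction. The called genes were the cyclins *Ccnd1*, *Ccna2* and *Ccnb1*, the kinases *Cdk1*, *Plk1* and *Bub1*, the replication licensing factors *Mcm3*, *Mcm5* and *Mcm6*, and *Mki67*, *Top2a*, *Rrm2* and *Birc5*. None was called with 8 libraries by edgeR, where the median was -1.28, whereas DESeq2 called 2.

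*Mki67*, which encodes the proliferation antigen Ki-67, was at 44.8, 12.2 and 11.9 CPM in vehicle libraries 1 to 3, 2.56 in vehicle library 4, and 2.58, 1.08, 2.74 and 7.43 in the TCDD libraries. Vehicle library 1 was well above 2 and 3, and vehicle library 4 lay within the TCDD range. In edgeR the log2 fold change was -2.75 ± 0.61 without vehicle library 4 (edgeR adjusted p = 0.0409), and the call was lost on leaving out 6 of the 7 libraries in turn, with an adjusted p of up to 0.191. *Rrm2*, a subunit of ribonucleotide reductase that makes deoxynucleotides, was at 103.2, 35.5 and 30.9 CPM in vehicle libraries 1 to 3, 152 in vehicle library 4, and 6.00, 9.30, 12.01 and 7.56 in the TCDD libraries. It was the called cell cycle gene with vehicle library 4 on the vehicle side. Fitted as log2, the fold change was -2.73 ± 0.39 without vehicle library 4 (edgeR adjusted p = 0.00516) and -3.20 ± 0.55 with it (adjusted p = 0.126). *Ccnd1*, cyclin D1 of entry into the cycle, was at 79.5, 103.7 and 87.9 CPM in vehicle libraries 1 to 3, 4.42 in vehicle library 4, and 30.3, 20.1, 37.1 and 21.5 in the TCDD libraries. Here vehicle libraries 1 to 3 were close to each other and all above the TCDD libraries, with a log2 fold change of -1.78 ± 0.23 (edgeR adjusted p = 0.00258).

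Among the genes of mitosis with the largest falls, which were named by size and partly lie outside the list, were *Hmmr* (log2 fold change -3.09 ± 0.53), *Ncapg* of condensin (-3.01 ± 0.55), *Knl1* (-3.00 ± 0.56) and *Ttk* (-2.97 ± 0.45) of the kinetochore checkpoint, and the spindle motor *Kif11* (-2.80 ± 0.45). All 5 were highest in vehicle library 1, whose highest rho with the vehicle time course was at 72 h. The part of that likeness in these falls was not tested. The number of cell cycle calls varied with the libraries and the fit. It was 6 of 22 without vehicle library 1, 2 without TCDD library 1, 6 without TCDD library 2, 8 without TCDD library 3 and 8 without TCDD library 4, against 13 and 15 without vehicle libraries 2 and 3. It also fell to 2 in one fit of all DRE-null libraries and to 3 with the share of pairs outside genes as covariate. The median log2 fold change was below 0 in each of these fits, from -1.92 to -1.15.

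**Figure D4:**
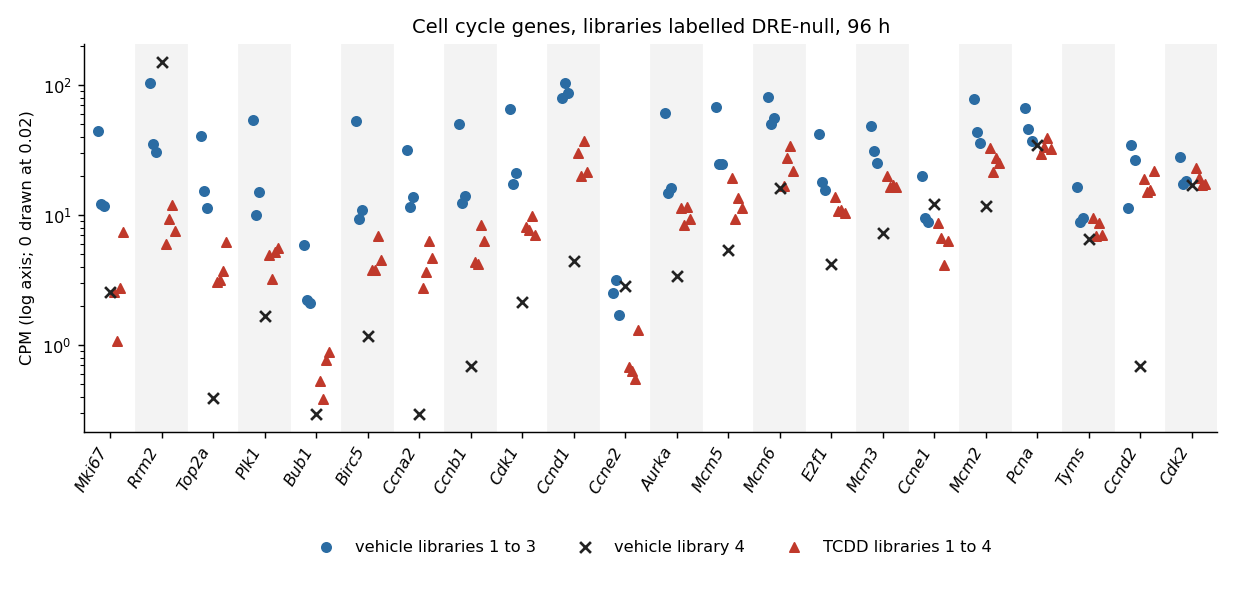
CPM (log axis) of the 22 cell cycle genes in each library. TCDD libraries 1 to 4 are red triangles, vehicle libraries 1 to 3 blue circles and vehicle library 4 crosses. Vehicle library 1 is the highest of vehicle libraries 1 to 3 for most genes (44.8 CPM for *Mki67*, against 12.2 and 11.9), and the crosses lie at or below the triangles except for a few genes such as *Rrm2*, at 152.

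Matrix genes came next. Of 26 matrix and remodelling genes tested, 2 rose and 2 fell without vehicle library 4, with a median of 0.14. *Mmp12*, an elastase, rose by 1.69 ± 0.35 (edgeR adjusted p = 0.0322) and lost the call on leaving out 3 of the 7 libraries in turn. *Plaur*, the receptor of urokinase, fell by 1.20 ± 0.17 on the log2 scale (edgeR adjusted p = 0.00518) and *Spp1*, osteopontin, by 1.19 ± 0.20 (0.0123).

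Of 27 cytoskeleton and mesenchymal genes tested, 2 fell and none rose without vehicle library 4, with a median of -0.33. *Krt19*, a keratin of bile duct cells and of dedifferentiating hepatocytes, was at 223, 134.7 and 119.7 CPM in vehicle libraries 1 to 3, 0.786 in vehicle library 4, and 57.3, 24.01, 66.5 and 44.98 in the TCDD libraries. It was lower in every TCDD library than in vehicle libraries 1 to 3, and vehicle library 4 was far below both. On the log2 scale the change was -1.76 ± 0.32 without vehicle library 4 (edgeR adjusted p = 0.0159), and the call was lost without TCDD library 1 (0.0664). *Cdh1*, E-cadherin of epithelial junctions, fell by 0.98 ± 0.17 (edgeR adjusted p = 0.0122) and lost its call without vehicle library 3 (0.0526). The sum of the 9 cholangiocyte markers, which include *Krt19* and *Spp1*, was 1051 to 1146 CPM in vehicle libraries 1 to 3, 54.5 in vehicle library 4 and 481 to 679 in the TCDD libraries (exact permutation test, two-sided, p = 0.0571 for 4 against 3, adjusted over 7 sums 0.133), and 2 of its 8 tested genes were called. With vehicle library 4 included, the sums of the groups overlapped.

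*Reln*, reelin, a secreted matrix protein that is also a marker of stellate cells, was at 3.04, 11.7, 10.5 and 21.8 CPM under vehicle and at between 83.7 and 240.8 with TCDD. Every TCDD library was above every vehicle library, with a log2 fold change of 4.00 ± 0.50 without vehicle library 4 (edgeR adjusted p = 0.00191). The sum of the 12 stellate and fibroblast markers was 65.3 to 103.7 CPM in vehicle libraries 1 to 3, 26.7 in vehicle library 4 and 171.8 to 317 with TCDD. The exact permutation test, two-sided, gave p = 0.0286 for 4 against 4 (adjusted 0.200) and p = 0.0571 for 4 against 3 (adjusted 0.133). Without *Reln* the ranges were 62.3 to 91.99, 4.92 and 75.97 to 166.7 CPM, and *Reln* was the 1 call among the 10 tested markers. Summed macrophage markers (64.01 to 141.4 CPM in vehicle libraries 1 to 3, 253 in vehicle library 4, 72.7 to 100 with TCDD) and endothelial markers (177 to 1032, 219 and 362 to 1150) overlapped between the groups, and none of the 10 and 12 tested genes was called. The part of stellate or bile duct cells in these genes was not tested.

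Other groups held a single call each, or a few. NRF2 targets had 2 rises and 1 fall among 20 tested genes without vehicle library 4: *Gpx2*, a glutathione peroxidase (2.00 ± 0.39, edgeR adjusted p = 0.0228), *Cbr3*, a carbonyl reductase (0.81 ± 0.16, 0.0273), and *Hmox1*, heme oxygenase 1 (-1.41 ± 0.32, 0.0445). All 3 lost the call on leaving out some of the 7 libraries in turn. In heme and iron metabolism *Cpox*, a heme synthesis enzyme, rose by 1.39 ± 0.22 (edgeR adjusted p = 0.00887), beside the same *Hmox1*, among 20 tested genes. *Gsta4* (0.84 ± 0.16, edgeR adjusted p = 0.0222) was the 1 call among 20 glutathione S-transferases, the clock gene *Per2* (1.39 ± 0.27, 0.0218) among 19 circadian genes, the RNA sensor *Ddx58* (0.82 ± 0.18, 0.0344) among 20 interferon-stimulated genes, and the chaperone *Cryab* (-1.49 ± 0.29, 0.0216) among 15 heat shock genes. *Per2*, *Ddx58*, *Gsta4* and *Cryab* each lost the call when at least 1 of the 7 libraries was left out. No gene was called in the lists of bile acid genes (15 tested), liver transcription factors (17), acute phase (20), NF-kB and chemokines (16), stress responses of the endoplasmic reticulum (20), p53 targets (15), immediate early genes (18), metallothioneins and zinc transporters (9), mitochondrial transcripts (13) and ribosomal proteins (37).

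Outside the lists, the largest rises without vehicle library 4 included genes hardly counted under vehicle. *P2ry10*, a G protein-coupled receptor of leukocytes, had no pair in any vehicle library and 4 to 19 pairs in the TCDD libraries, at least 3.79-fold higher than a floor of 3 pairs per library. *Col9a2*, a collagen IX chain, had 0, 0 and 1 pairs in vehicle libraries 1 to 3 and 26 to 82 with TCDD (fitted log2 fold change 6.30 ± 0.87, edgeR adjusted p = 0.00403). *Slitrk5*, a neuronal transmembrane protein, had 0, 0 and 2 pairs against 10 to 64 (5.36 ± 1.00, edgeR adjusted p = 0.0190), and *Smcp*, a sperm mitochondrial protein, 3, 4 and 11 against 21 to 308 (4.03 ± 0.82, adjusted p = 0.0285). These folds depend on the prior count. *P2ry10*, *Col9a2*, *Slitrk5* and *Smcp*, like *Cyp1b1*, *Ahrr* and *Sult2a1* above, passed the filter on low counts only through the TCDD libraries. A gene of this kind was tested only because it was counted there. *P2ry10* and *Slitrk5* could be tested in only 4 of the 7 fits with 1 further library left out. Of the 4 genes, *Col9a2* alone kept its call when each of the 7 libraries was left out in turn.

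The largest falls outside the cell cycle included *Lrp2*, megalin, an endocytic receptor. *Lrp2* was at 8.57, 9.498 and 4.06 CPM in vehicle libraries 1 to 3, 1.28 in vehicle library 4, and 0.780, 1.12, 0.904 and 0.887 in the TCDD libraries. Every vehicle library was above every TCDD library, vehicle library 4 by the least, with a log2 fold change of -3.03 ± 0.36 without vehicle library 4 (edgeR adjusted p = 0.00131). *Scel*, sciellin of stratified epithelia, had a log2 fold change of -3.56 ± 0.54 (edgeR adjusted p = 0.00721), the interferon-inducible GTPase *Gvin1* one of -3.67 ± 0.76 (0.0310), and the anion exchanger *Slc4a9* one of -2.94 ± 0.53 (0.0164). *Ly6c1* was at -2.98 ± 0.67 (edgeR adjusted p = 0.0444) and *Wfdc21* at -2.68 ± 0.61 (0.0462), both highest among vehicle libraries 1 to 3 in library 1, at 7.45 and 45.1 CPM, and *Wfdc21* was at 658 CPM in vehicle library 4. Of these 6 genes *Lrp2* alone kept the call when each of the 7 libraries was left out in turn.

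The same contrast under the wild-type label at 96 h and under the DRE-null label at 72 and 120 h used other libraries. It called 2085 of 13793 genes (15.1%) under the wild-type label, 154 (1.13%) at 72 h and 91 (0.633%) at 120 h. Of the 321 genes called without vehicle library 4, 212 (66.04%) were called under the wild-type label at 96 h, which was 10.2% of the calls there. At 72 h 98 were shared (30.5% of the 321 and 63.6% of the calls at 72 h), and at 120 h 75 (23.4% and 82.4%). Every shared gene had the same direction. The unmapped share of the TCDD libraries under the DRE-null label was also low at 72 h (2.426% to 3.164%) and 120 h (2.204% to 2.477%). In the vehicle libraries of that label it was 3.065% to 7.74% at 72 h and 4.06% to 6.676% at 120 h. The part of this in the shared calls was not tested. Of the 11 genes called with 8 libraries, all 11 were called under the wild-type label at 96 h, and 10 each at 72 and 120 h. The log2 fold change of *Cyp1b1* was 13.51 without vehicle library 4, against 14.26 at 72 h, 13.28 at 120 h and 7.49 under the wild-type label, and that of *Tiparp* was 3.65 against 4.37, 3.82 and 3.99. *Cyp1a1* was not called under the wild-type label at 96 h (log2 fold change 3.25, edgeR adjusted p = 0.139).

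**Figure D5:**
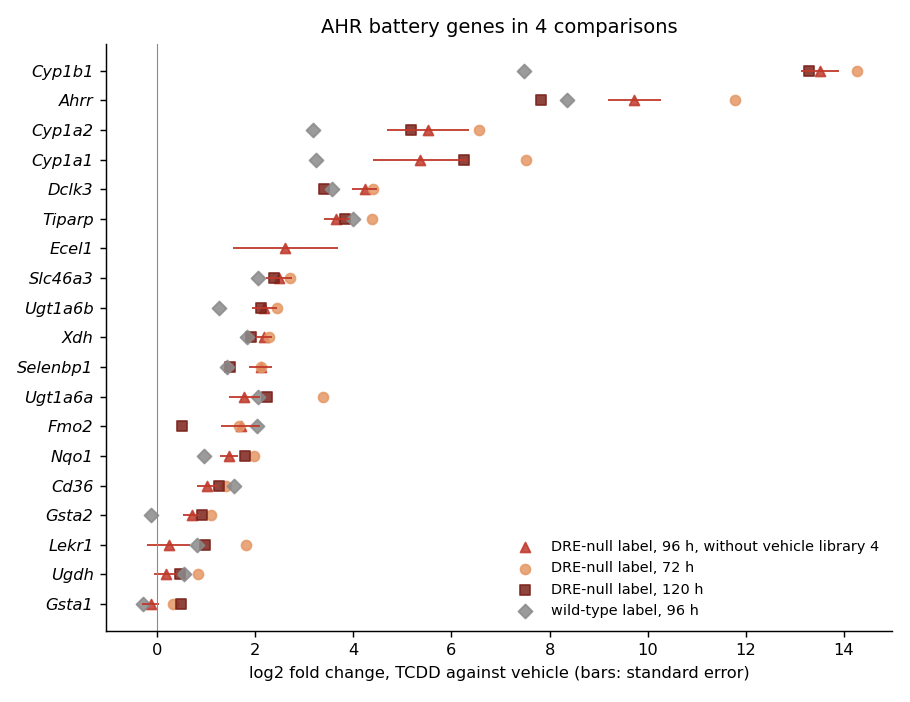
Log2 fold change of TCDD against vehicle (horizontal axis) for 19 tested AHR battery genes under the DRE-null label at 96 h without vehicle library 4 (triangles, with bars of 1 SE), at 72 h (circles) and 120 h (squares), and under the wild-type label at 96 h (diamonds), the last 3 without bars. Most genes lie to the right of 0 in each comparison that tested them (*Ecel1* has only the triangle), and *Cyp1b1* ranges from 7.49 to 14.26.

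The differences between these responses were tested as interactions. No gene passed edgeR's adjusted p of 0.05 for DRE-null minus wild-type at 96 h, for 96 minus 72 h or for 96 minus 120 h, with or without vehicle library 4. At an unadjusted p under 0.05 there were 1930, 580 and 422 genes with vehicle library 4, and 2765, 489 and 333 without it. The count of 0 for the label difference was not stable: limma voom with quality weights called 1008 genes, and leaving out TCDD library 4 gave 438 by edgeR, 433 of them with a lower response under the DRE-null label. For the 2 time differences voom called 0. None of the 22 cell cycle genes passed the edgeR test of the label difference. *Mki67* had a label difference of -3.21 ± 0.79 without vehicle library 4 (log2, DRE-null minus wild-type, edgeR adjusted p = 0.0796), with log2 fold changes of 0.40 under the wild-type label, 0.33 at 72 h and -0.18 at 120 h, and *Rrm2* one of -1.95 ± 0.44 (adjusted p = 0.0786). The label difference of *Cyp1b1* was 5.95 ± 2.52 (adjusted p = 0.240), and that of *Pkm* was 0.68 ± 0.33 (adjusted p = 0.288), where the wild-type label gave -0.73 (edgeR adjusted p = 0.00376).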

How the data were processed

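RNA-Seq libraries were prepared from mouse primary hepatocyte cultures. The authors deposited raw counts of uniquely mapped read pairs per gene, as STAR writes them, of which the unstranded column was used. The submitters' processing notes name FastQC 0.11.3, Trimmomatic 0.39, STAR 2.7, DESeq2 and the genome GRCm39. Each table holds 55359 gene lines, of which 52083 took a symbol from the GENCODE M21 annotation, which belongs to build GRCm38. Its 4 lines that name no gene held 16.8% to 28.7% of the pairs in these 8 libraries and were left out. Depth was 17740379 to 30008281 pairs on genes, and a count of 0 allows a level of up to 3 pairs in a library. That limit covers counting error only.

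Libraries were grouped by genotype, treatment and time in the labels. Counts were scaled by TMM, filtered with filterByExpr (minimum count 10, minimum total 15) and fitted with the robust quasi-likelihood test of edgeR 4.0.16 in R 4.3.3, with p-values adjusted over all genes tested by the method of Benjamini and Hochberg. The design held treatment alone, for 4 against 4 and for 4 against 3. The SE printed with a log2 fold change was derived from the test, as the absolute change divided by the square root of the F statistic. It is an approximation and was not estimated by the fit itself. Differences between responses were interaction terms in fits of the libraries compared. Alternatives were RLE scaling, DESeq2 1.42.0, voom with quality weights in limma 3.58.1, no filter on low counts, no threshold on fold change, a covariate for pairs outside genes, fits of more libraries, and each library left out in turn. The fits by edgeR, voom and DESeq2 were tested on simulated counts with known changes, and the remaining steps were not. Other steps used Python 3.11.15, numpy 2.4.6, pandas 2.3.3, scipy 1.17.1 and matplotlib 3.10.9.

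The 43 gene lists (of 777 genes, 775 were found by symbol, and 7 lists are cell type markers) and the libraries compared were chosen with earlier results of these data known. Genes were named by rule: *Pkm*, *Pklr* and the AHR battery, every gene called with 8 libraries, the 15 largest rises and 15 largest falls without vehicle library 4 whose groups did not overlap, and up to 8 called members of a list (the 2 most abundant members where none was called). Some genes that the rule takes are not reported here. Times other than 72, 96 and 120 h were used only for *Pkm*, for the unmapped share, for the likeness of libraries and in fits of more libraries.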

Additional observations from a re-analysis of the deposited data

Results flagged for a closer look

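In groups of 4, a library was singled out when its gap to the nearest other library took up more of the range of its group than the 95% critical value of Dixon's test allows. Of 76 groups examined for 38 measures, 13 had such a library. Vehicle library 4 accounted for 12 of these 13, and no TCDD library was singled out. Chance would flag about 1 in 20 groups if the measures were independent. They were read from the same libraries, and vehicle library 4 was known beforehand to stand apart. The number of flags is therefore a description and cannot be set against that rate.

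Vehicle library 4 lay above the other vehicle libraries in the unmapped share (11.13%), in 2 feedback genes of the receptor, *Ahrr* (0.4915 CPM) and *Tiparp* (78.05 CPM), and in the conjugating enzyme *Ugt1a9* (39.42 CPM). It was also high in metabolic genes of the hepatocyte: *Adh1* (2206 CPM), *Ces1f* (597.4 CPM), *Arg1* (1054 CPM) and *Acaa1b* (1132 CPM). *Igf1* was at 509.5 CPM there. Summed hepatocyte markers came to 193300 CPM and summed erythroid markers to 317.5 CPM in that library, whereas summed cholangiocyte markers were low, at 54.46 CPM. The other library singled out was vehicle library 2, whose summed endothelial markers were at 1032 CPM against 177 to 271 CPM in the other 3 vehicle libraries.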

How the results depend on the processing

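With all 8 libraries, 0.0793% of the genes tested were called (11 genes). The share was 1.06% by DESeq2 (147 genes), 2.77% by voom (384), 0.109% without a filter (31), 3.01% in one fit of all DRE-null libraries (509, of which 418 were lower) and 0.0216% with the share of pairs outside genes as covariate (3 genes). Leaving out 1 library gave 0.0281% to 2.25%. The 10 genes named kept their direction under every alternative run, and *Cyp1b1*, *Lrp4* and *Entpd2* kept the call under each. The cause of these differences was not tested.

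Without vehicle library 4, 2.25% were called (321 genes). The share was 4.70% by DESeq2 (672 genes), 3.60% by voom (514), 2.73% without a filter (764), 0.407% in one fit of all DRE-null libraries (71) and 0.588% with the covariate (84). Leaving out 1 further library gave 0.815% to 3.03%. Of 87 called genes named in the text, all kept their direction under the alternatives run, 39 kept the call with each of the 7 libraries left out in turn, and 25 kept it under every alternative. The calls lost were 56 in the fit of all DRE-null libraries, 46 with the covariate, and 0 by DESeq2.

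No gene was called for the differences between responses, except as follows. For the label difference, voom called 6.82% (1008 genes), one fit of every library of the series 0.923% (166), and leaving out 1 library gave 0 to 2.91%. One fit of every library called 1.12% (201) for 96 minus 72 h and 0.940% (169) for 96 minus 120 h. The signs that turned in the fit of 7 libraries were of genes that were not called. The log2 fold change of *Pkm* was 0.0100 by RLE scaling and by DESeq2, 0.29 by voom, 0.02593 without a filter, and -0.20 to 0.49 with 1 library left out. *Gsta1* was at 0.0110 by voom and at -0.23 to 0.0692 with 1 library left out, *Ugdh* at -0.0129 to 0.37 and *Lekr1* at -0.0175 to 0.36. No paired analysis was possible because the labels give these libraries no replicate number. A gene was tested only if it reached about 10 counts in as many libraries as the smaller group holds, from either treatment. Genes nearly uncounted under vehicle could thus be tested through the TCDD libraries. Having 4 libraries a side also limits what can be called.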
